A study of Mus musculus with 10 samples.

Results

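Chromatin accessibility and the promoter mark H3K4me3 were examined at 9 genes that regulate the quiescence of stem cells, *Foxo1*, *Foxo3*, *Klf4*, *Klf9*, *Bhlhe40*, *Rest*, *Bmi1*, *Nr2e1* and *Prox1*. The genes were taken by name from the mouse annotation (mm10, GENCODE M21), with earlier results of these data known. No measured value served as a filter. A peak was given to a gene when it lay in the gene body or within 50 kb of it and its nearest protein-coding start belonged to that gene. Of 108367 merged ATAC-seq sites, 77 met this rule. NSPCs, cultures of neural stem and progenitor cells, came from C57BL/6 mice at postnatal day 5, and the labels name no allele or transgene in any group. Activated NSPCs grew in medium holding FGF2 and EGF, each at 20 ng/ml. Quiescent NSPCs were kept without EGF, in BMP4 at 25 ng/ml with FGF2 at 20 ng/ml, for 4 days by the labels and for a shorter time before ATAC-seq by the methods. Reactivated NSPCs spent 4 days in the BMP4 medium and then 9 to 12 days in the activating medium. There were 2 biologically independent ATAC-seq libraries for each of the 3 states, and 1 H3K4me3 ChIP-seq library each for quiescent and activated cells. The culture is a model with a mixture of stem and progenitor cells, so a change in the mixture and a change within each cell cannot be told apart.

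These genes act on quiescence from several sides. FOXO1 and FOXO3 are forkhead transcription factors that growth factor signaling through AKT keeps out of the nucleus, and FOXO3 helps to preserve the neural stem cell pool. KLF4 and KLF9 are zinc finger factors of the Krüppel-like family, and BHLHE40 is a basic helix-loop-helix repressor also known from the circadian clock. REST represses neuronal genes in cells that are not neurons, and BMI1 is a subunit of Polycomb repressive complex 1 that holds cell cycle inhibitors down and so sustains self-renewal. NR2E1, also called TLX, is an orphan nuclear receptor needed for neural stem cell proliferation. PROX1 is a homeobox factor of intermediate progenitors and of granule neurons.

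Each deposited ATAC-seq list gives the position of every peak and its fold enrichment. This is the height of the read pileup at the summit over the background of the same library. The lists held between 47037 and 60355 peaks on autosomes, X and Y in the 4 quiescent and activated libraries, against 106270 and 106830 in the reactivated libraries. Peak names of the reactivated lists carry a tag for reduced reads that the other lists do not carry, so the state and that processing cannot be told apart. At sites open in all 6 libraries the median log2 fold enrichment of quiescent libraries was 0.22 below that of activated libraries (-0.22), and that of reactivated libraries was 0.65 above it. At the summits of the 9 genes' sites, the lowest pileup was between 17 and 25 reads per library. A site missing from a list may still hold reads below the limit of peak calling. Of 6 promoters of neural stem and progenitor cell markers, 5 had a peak in all 6 libraries, and *Slc1a3* lacked one in both activated libraries. Promoters of 3 endothelial markers had none, and of 3 microglial markers *Cx3cr1* alone had one, in 1 quiescent library. The neuronal markers *Syt1* and *Tubb3* had a promoter peak in all 6 libraries and *Rbfox3* in 3. Of the oligodendrocyte markers examined, *Mbp* had one in 3 libraries and *Mog* had none. What these cells contribute to the results was not tested.

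The 9 genes differed widely in how much open chromatin lay near them. *Foxo3* had 16 sites, *Foxo1* 15, *Klf9* 12, *Prox1* 11, *Bhlhe40* 8, *Klf4* 7, *Rest* 4, *Bmi1* 3 and *Nr2e1* 1. Neighbouring genes took some of the sites within reach, 5 at *Bmi1* (*Commd3* and *Spag6*), 3 at *Rest* (*Polr2b* and *Spink2*), 3 at *Nr2e1* (*Ostm1*) and 1 at *Klf9* (*Smc5*). A site was called shared when at least 1 quiescent and 1 activated library had a peak, and specific when both libraries of a state and neither of the other had one. By this rule 20 of the 77 sites were shared (26.0%), where 32% of all 108367 sites were. Quiescent-specific sites numbered 6 (7.79%, against 6.26% of all sites) and activated-specific sites 4 (5.19%, against 4.24%). A further 18 had a peak in a single quiescent or activated library (20.8% of all sites were of this kind), and 29 had peaks only in reactivated libraries (37.7%, against 36.7%), 12 of them in both (40.2% of all such sites). The exact 95% binomial interval of each share, which covers counting error only, contained the share of all sites.

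Sites were counted in each library to see which genes had more of them in a given state. *Foxo1* had 5 sites in each quiescent library and 3 and 2 in the activated libraries. Only its promoter site and the site 61.0 kb downstream were in both quiescent lists, and its other quiescent sites differed between the libraries. Its promoter site and the site 1.8 kb downstream were in both activated lists. *Foxo3* had 6 and 8 in quiescent against 4 in each activated library, and *Klf9* had 5 and 3 against 2 and 1. For *Klf9*, only the promoter site and the site 0.9 kb downstream were in both quiescent lists. For *Rest* the counts were 2 and 3 in quiescent and 1 in each activated library. In these 4 genes the quiescent counts lay above the activated counts with no overlap, as they did in 12.6% of 17545 genes with a site. *Prox1* went the other way, with 3 sites in each quiescent and 6 in each activated library, a pattern found in 6.33% of genes. Neither this share nor the 12.6% was matched to the number of sites a gene had. *Klf4*, *Bhlhe40*, *Bmi1* and *Nr2e1* had counts that overlapped or tied between the states. With 2 libraries per state, an exact permutation test of any single count cannot go below p = 0.333 (two-sided).

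**Figure D1:**
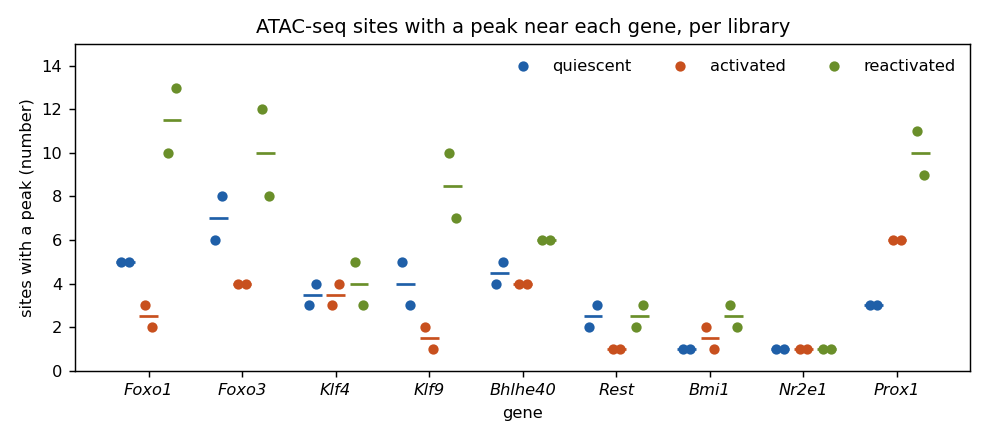
Number of ATAC-seq sites with a peak near each gene, with 1 point per library, coloured by state, and a line at the mean of each state. *Prox1* is the gene with more sites in both activated (6 and 6) than in both quiescent libraries (3 and 3), and *Foxo1*, *Foxo3*, *Klf9* and *Rest* show the opposite order.

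All peaks near the 9 genes together numbered 47.5 ± 2.12 in quiescent, 45.5 ± 4.95 in activated and 85 ± 5.66 in reactivated libraries (mean ± SD, n = 2 libraries per state). As a share of each list these came to 0.0826%, 0.0867% and 0.0798% on average. The higher number in reactivated cells thus went with the longer lists, and with each list limited to its 47037 strongest peaks the reactivated mean was 46.5, against 39 in quiescent and 43 in activated libraries.

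Every one of the 9 promoters was open in every library. A peak lay within 1 kb of a start in all 6 libraries, as for 52.2% of 21853 protein-coding genes, and an H3K4me3 peak lay there in both states, as for 59.3%. Fold enrichment at the promoter site ran from 4.47 (*Bmi1*, quiescent replicate 1) to 10.5 (*Klf4*, activated replicate 1). The sequence at these summits was rich in G and C, with a median of 73.6% over windows of 201 bp (range 59.7% to 83.1%), against 64.2% for all 20235 sites with a summit within 1 kb of a start.

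**Figure D2:**
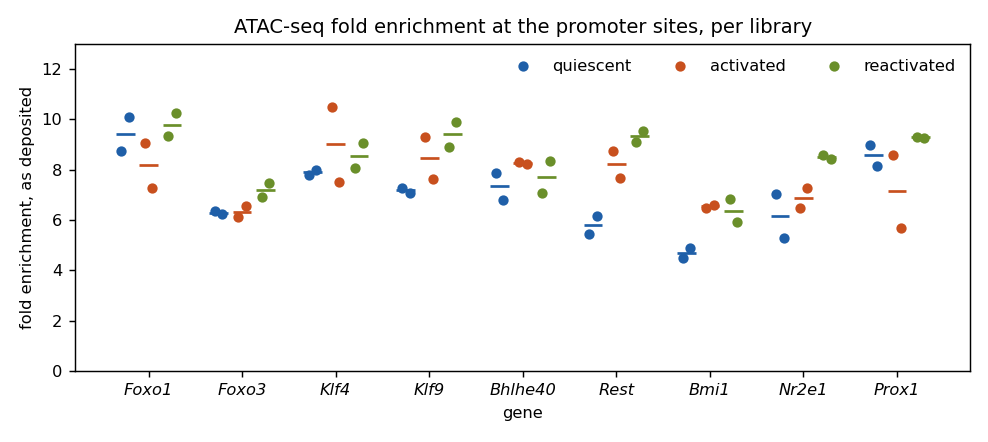
Fold enrichment as deposited at the promoter site of each gene, with 1 point per library, coloured by state, and a line at the mean of each state. *Rest*, *Bmi1*, *Klf9* and *Bhlhe40* have both quiescent points below both activated points, and the points of the other genes overlap between these states.

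The level of accessibility was tested only at sites with a peak in all 6 libraries, 23116 in all and 16 of the 77, after the log2 fold enrichment of each library had been centred on its median. Between quiescent and activated NSPCs, 1 of the 16 sites was higher in quiescence and 0 were lower (limma, Benjamini-Hochberg adjusted p under 0.05), where 5.29% of all tested sites were higher and 5.76% lower. At an unadjusted p under 0.05 in either direction the count was 6 of 16, against 25.9% of all tested sites. Their median log2 change was 0.11, against 0.07 for all sites tested. On the values as deposited, both quiescent libraries lay above both activated libraries at 2 of the 16 sites and below them at 4, and for all sites tested these shares were 11.5% and 37.5%. After centring the counts were 7 and 1, against 31.9% and 21.2%.

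**Figure D3:**
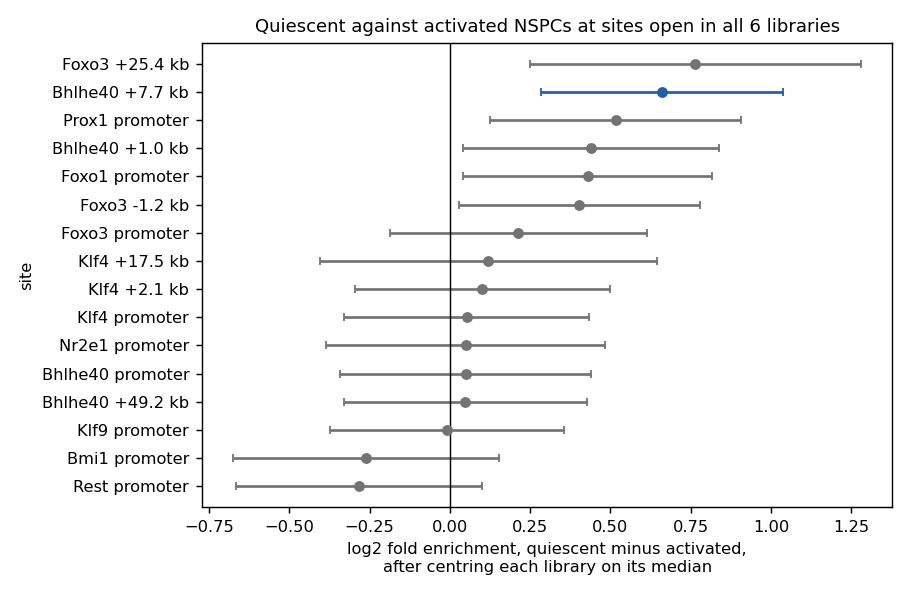
Change of log2 fold enrichment from activated to quiescent NSPCs at the 16 sites tested, with points at the fitted difference and bars for its 95% confidence interval from limma, not adjusted for multiple tests. The *Bhlhe40* site 7.7 kb downstream of the start, in blue, passed the adjusted threshold, with a log2 change of 0.66.

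The site that passed lay 7.7 kb downstream of the *Bhlhe40* start, beyond the end of the gene (gene at chr6:108660629-108666925, plus strand). Fold enrichment there was 6.89 and 7.18 in quiescent, 6.10 and 4.42 in activated, then 11.8 and 12.1 in reactivated libraries. Both quiescent values lay above both activated values, by a log2 change of 0.66 ± 0.17 (SE) after centring, or 1.58-fold (95% confidence interval 1.22 to 2.05, adjusted p = 0.0292). The recovered pileups, not scaled for depth, were 52 and 93 reads in quiescent and 45 and 30 in activated libraries. The background there was 6.69 and 12.1 in quiescent and 6.54 and 6.01 in activated libraries. The call did not survive the loss of any single library, with adjusted p between 0.0551 and 0.167. It was also lost in a fit of the 4 quiescent and activated libraries alone (adjusted p = 0.0570), without centring (0.218) and with missing peaks at the lowest value of each list (0.952).

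An H3K4me3 region of 429 bp, with a fold enrichment of 4.29, overlapped this *Bhlhe40* site in quiescent cells, and the activated list had no peak there. A *Bhlhe40* site 49.2 kb downstream of the start had the highest mean percentile of any site in the set and carried H3K4me3 in both states. Its fold enrichment was 8.32 and 7.51 in quiescent, 10.3 and 7.72 in activated, then 12.1 and 10.8 in reactivated libraries. At the *Bhlhe40* promoter it was 7.88 and 6.80, 8.29 and 8.22, and 7.08 and 8.34 in the same order, with an adjusted p of 0.893 between quiescent and activated cells. A site 37.9 kb downstream, named here after its values were seen, had 11.5 and 9.10 in the reactivated libraries and no peak in the other 4.

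*Foxo3* (chr10:42181841-42276755, minus strand) had a promoter whose level overlapped between quiescent and activated cells, and several sites in its introns. The promoter values were 6.35 and 6.23 in quiescent, 6.11 and 6.56 in activated, then 6.91 and 7.45 in reactivated libraries. An adjoining site 1.2 kb upstream, the strongest of the gene by mean percentile, had 8.41 and 7.83, 8.55 and 5.99, and 7.16 and 7.47. An intronic site 25.4 kb downstream of the start had 6.05 and 6.04 in quiescent, 3.45 and 4.99 in activated, then 9.37 and 8.58 in reactivated libraries. Both quiescent values lay above both activated values, but the log2 change of 0.76 ± 0.24 (SE) did not pass the threshold (adjusted p = 0.0586). Without activated replicate 2, the change was 1.13 and passed (adjusted p = 0.0133), and without activated replicate 1 it was 0.35 (adjusted p = 0.351).

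Quiescent-specific sites of *Foxo3* lay in an intron 34.8 kb downstream of the start and in intergenic sequence 18.5 kb upstream. The intronic site had a fold enrichment of 4.86 and 4.36 in quiescent and 4.80 and 8.78 in reactivated libraries. The upstream site had 4.47 and 2.98 in quiescent libraries and a peak in 1 reactivated library, at 4.33. The activated-specific site of *Foxo3*, in an intron 2.2 kb downstream, was weak, with 2.14 and 2.34 in activated cells and no peak in the other 4 libraries. Of genes with a site, whatever their number of sites, 5.31% had specific sites of both kinds. Of the 9 genes *Foxo3* and *Prox1* were among them.

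*Foxo1* (chr3:52268336-52353221, plus strand) had the highest mean level of the 9 promoters in quiescent cells, 9.41 against 8.57 at *Prox1*, the next. Its values were 8.73 and 10.1 in quiescent, 9.07 and 7.28 in activated, then 9.35 and 10.2 in reactivated libraries. The quiescent and activated values overlapped as deposited. After centring, both quiescent values lay above both activated values, but the log2 change of 0.43 ± 0.18 (SE) did not pass the threshold (adjusted p = 0.151). Its quiescent-specific site, in an intron 61.0 kb downstream of the start, was weak, with 2.37 and 2.75 in quiescent and 3.20 and 3.42 in reactivated libraries. Of its 15 sites, 6 had a peak in a single quiescent or activated library and 6 only in reactivated cells.

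None of the 4 tested sites of the Krüppel-like genes passed the threshold between quiescent and activated cells. At the *Klf4* promoter (gene at chr4:55527143-55532466, minus strand) fold enrichment was 7.80 and 8.0 in quiescent, 10.5 and 7.50 in activated, then 8.05 and 9.07 in reactivated libraries. A *Klf4* site 17.5 kb downstream of the start was about as strong, at 8.55 and 5.27, 6.50 and 7.99, and 13.8 and 12.0. The adjusted p between quiescent and activated cells was 0.880 at the promoter and 0.798 at the downstream site. *Klf4* had no specific site of either kind.

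At the *Klf9* promoter (gene at chr19:23141226-23168134, plus strand) fold enrichment was 7.27 and 7.08 in quiescent, 9.31 and 7.63 in activated, then 8.91 and 9.90 in reactivated libraries. Both quiescent values lay below both activated values as deposited, but not after centring (adjusted p = 0.978). The quiescent-specific site of *Klf9* lay in its first exon, 0.9 kb downstream of the start, with 3.15 and 3.34 in quiescent libraries and a peak in 1 reactivated library, at 2.69.

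*Rest* and *Bmi1*, which encode repressors of transcription, were the genes whose promoters had lower deposited values in quiescent cells by the widest gap. The *Rest* promoter (gene at chr5:77265491-77286432, plus strand) had 5.44 and 6.16 in quiescent, 8.76 and 7.69 in activated, then 9.10 and 9.55 in reactivated libraries. The *Bmi1* promoter (gene at chr2:18677018-18686629, plus strand) had 4.47 and 4.90, 6.49 and 6.59, and 6.85 and 5.90. In both genes the quiescent and activated values did not overlap, but the median over all tested sites was lower in quiescent libraries too. After centring, the log2 change was -0.28 ± 0.18 (SE) at *Rest* (adjusted p = 0.344) and -0.26 ± 0.19 at *Bmi1* (adjusted p = 0.422), and neither passed the threshold.

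*Rest* also had a quiescent-specific site in an exon 17.0 kb downstream of the start. Its fold enrichment was 3.29 and 4.28 in quiescent and 6.27 and 5.19 in reactivated libraries. The single site of *Nr2e1* (chr10:42561963-42583632, minus strand) was its promoter, which overlaps an exon of the antisense gene *Ostm1*. It had 7.03 and 5.27 in quiescent, 6.47 and 7.27 in activated, then 8.57 and 8.43 in reactivated libraries, with overlap between quiescent and activated cells (adjusted p = 0.902).

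*Prox1* (chr1:190118035-190170714, minus strand) held 3 of the 4 activated-specific sites. Genes with at least 3 such sites made up 0.901% of 17545 genes with a site, a share not matched to the number of sites a gene had. The site 19.7 kb upstream of the start, in an intron of the antisense transcript *Prox1os*, had a fold enrichment of 5.70 and 5.99 in activated libraries. In reactivated libraries it reached 12.8 and 13.5, and neither quiescent list had a peak. The site 32.6 kb downstream, in an intron of *Prox1*, had 4.38 and 6.42 in activated, then 9.99 and 9.12 in reactivated libraries. The intergenic site 90.6 kb downstream had 6.77 and 3.51 in activated, then 7.80 and 9.66 in reactivated libraries. All 3 were thus open in both reactivated libraries, whose median deposited value was higher. Relative to the median of each library at sites open in all 6, the site 19.7 kb upstream was at -0.38 and -0.03 in activated and at 0.30 and 0.33 in reactivated libraries on the log2 scale. On that scale the activated and reactivated values of the other 2 sites overlapped.

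These *Prox1* sites could not enter the test because quiescent libraries had no value for them. At the *Prox1* promoter the order was not the same, with 8.99 and 8.15 in quiescent, 8.60 and 5.66 in activated, then 9.32 and 9.27 in reactivated libraries (log2 change 0.52 ± 0.18 SE, adjusted p = 0.0881). *Prox1* also had a quiescent-specific intronic site 42.6 kb downstream, with 3.94 and 2.60 in quiescent and 7.73 and 4.95 in reactivated libraries.

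**Figure D4:**
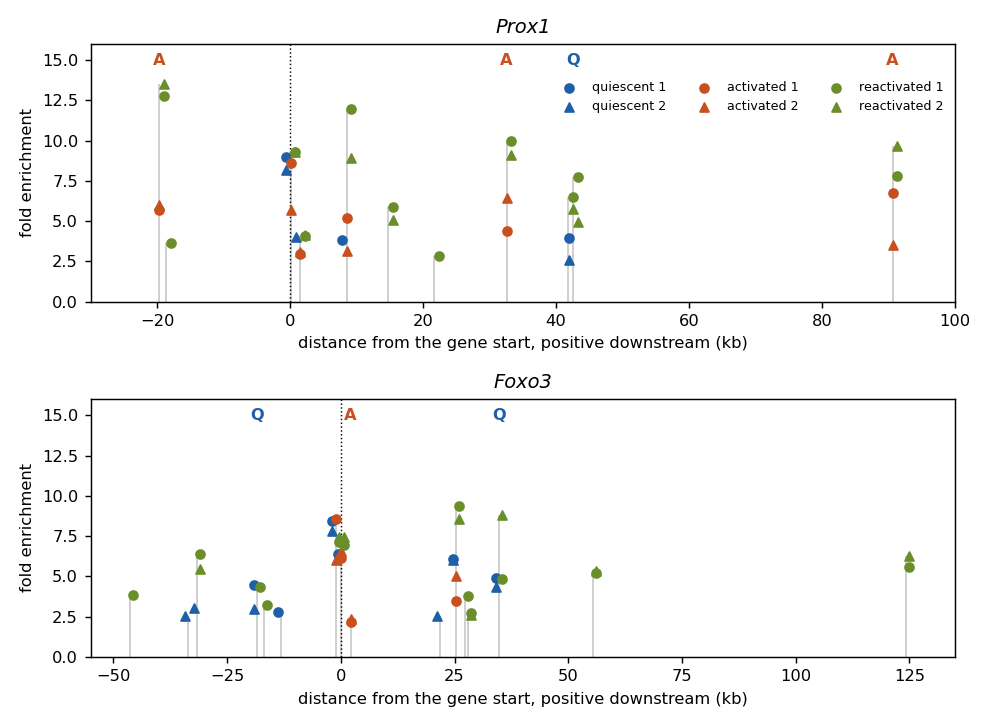
Fold enrichment as deposited at each site of *Prox1* (top) and *Foxo3* (bottom) against the distance from the gene start in kb, with circles for replicate 1 and triangles for replicate 2, coloured by state and set slightly apart along the axis; a missing point means no peak in that list. Letters mark quiescent-specific (Q) and activated-specific (A) sites, and the 3 *Prox1* sites marked A have reactivated points between 7.80 and 13.5.

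The test or the peak calls differed between quiescent and activated cells at the sites chosen here. The sequence around the summit is shown for the site that passed the test and for the 5 strongest specific sites. Each is 201 bases of the plus strand of mm10 (GRCm38.p6), 5′ to 3′. Capitals mark exact matches on either strand to the NFI core TTGGC, the forkhead core TGTTTAC, the AP-1 site TGANTCA, the E-box CACGTG and the KLF core GGGNGTG.
*Bhlhe40*, 7.7 kb downstream of the start, chr6:108668307-108668507: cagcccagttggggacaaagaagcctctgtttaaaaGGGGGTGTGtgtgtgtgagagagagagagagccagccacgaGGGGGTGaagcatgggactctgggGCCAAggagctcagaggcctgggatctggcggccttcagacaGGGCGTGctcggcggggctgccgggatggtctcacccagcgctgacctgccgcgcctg
*Prox1*, 19.7 kb upstream, chr1:190190328-190190528: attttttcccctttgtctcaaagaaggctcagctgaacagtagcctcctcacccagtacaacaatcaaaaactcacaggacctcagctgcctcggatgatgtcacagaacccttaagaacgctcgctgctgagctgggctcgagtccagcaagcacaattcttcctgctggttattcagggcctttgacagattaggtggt
*Prox1*, 32.6 kb downstream, chr1:190138066-190138266: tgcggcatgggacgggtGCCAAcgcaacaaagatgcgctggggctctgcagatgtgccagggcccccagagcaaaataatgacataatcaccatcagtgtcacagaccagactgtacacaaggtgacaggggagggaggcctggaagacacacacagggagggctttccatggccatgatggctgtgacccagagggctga
*Prox1*, 90.6 kb downstream, chr1:190079969-190080169: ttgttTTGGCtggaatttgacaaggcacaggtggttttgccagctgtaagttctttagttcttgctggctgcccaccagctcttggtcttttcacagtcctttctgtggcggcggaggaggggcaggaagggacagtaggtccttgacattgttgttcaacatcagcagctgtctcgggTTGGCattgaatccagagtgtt
*Foxo3*, 34.8 kb downstream, chr10:42241879-42242079: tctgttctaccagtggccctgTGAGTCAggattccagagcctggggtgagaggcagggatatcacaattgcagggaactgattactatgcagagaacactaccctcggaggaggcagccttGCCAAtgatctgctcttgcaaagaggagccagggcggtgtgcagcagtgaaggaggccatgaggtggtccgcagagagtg
*Rest*, 17.0 kb downstream, chr5:77282363-77282563: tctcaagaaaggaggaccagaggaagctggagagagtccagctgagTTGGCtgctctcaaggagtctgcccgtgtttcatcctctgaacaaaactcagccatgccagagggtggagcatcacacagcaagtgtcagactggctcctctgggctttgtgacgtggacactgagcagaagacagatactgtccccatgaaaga

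TTGGC was found in every window shown except that of *Prox1* 19.7 kb upstream, which held no match to any of these motifs. Among all specific sites of the 9 genes, it was at 3 of 6 quiescent-specific sites (54.2% of all such sites). It was at 2 of 4 activated-specific sites (46.3%). In windows of the same length it was at 21 of the 77 sites, against 44.7% of all sites. The *Bhlhe40* window held 4 matches to GGGNGTG, some of which overlap, and this motif was at 16.2% of all sites and 12 of the 77. CACGTG, the class of E-box that BHLHE40 is known to bind, was found at 3 of the 9 promoter sites, those of *Bhlhe40*, *Bmi1* and *Klf4*. It was at 7 of the 77 sites and at 3.48% of all sites. Of all 108367 sites, 88132 had no summit within 1 kb of a start, and no share for promoter sites alone was taken. TGANTCA was found at 6 of the 77 sites (7.65% of all sites) and TGTTTAC at 3 (2.41% of all sites). A match describes these letters and is not evidence of a bound factor.

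Of the 6 quiescent-specific sites, 4 were open in both reactivated libraries (66.7%, against 55% of all quiescent-specific sites). Of the 4 activated-specific sites, 3 were (75%, against 91.9%), and all 20 shared sites were (95.5% of all shared sites). With all 6 lists limited to equal length, which also changed the classes, 0 of 4 quiescent-specific sites of these genes were open in both (18.6% of all such sites) and 3 of 3 activated-specific sites were (56.4%).

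Levels in reactivated cells were tested at the same 16 sites, against activated and against quiescent cells, and the comparisons share libraries. Because the median fold enrichment of reactivated libraries was higher, by 0.65 and 0.87 on the log2 scale, each change is relative to that shift. Relative to activated cells, 1 of the 16 sites was higher (6.62% of all sites tested) and 4 were lower (9.95%). The 1 higher call was lost on leaving out any library. The number lower was 2 without activated replicate 1, 1 without activated replicate 2, and 0 with either reactivated library left out, without centring or with the mean of the peaks of a site. The site that was higher was again the *Bhlhe40* site 7.7 kb downstream (log2 change 0.55 ± 0.17 SE, adjusted p = 0.0494, and 0.0603 with the replicate number as a block). The sites that were lower were the promoters of *Klf4*, *Bmi1* and *Bhlhe40* and the *Foxo3* site 1.2 kb upstream.

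Relative to quiescent cells, 0 of the 16 sites were higher in reactivated cells (11.2% of all sites tested; limma called 0, and 10 had an unadjusted p under 0.05 in either direction, as did 45.3% of all tested sites) and 9 were lower (22.5%). The *Foxo3* site 1.2 kb upstream had a log2 change of -1.02 ± 0.17 (SE, adjusted p = 0.00208), and the *Foxo1* promoter one of -0.81 ± 0.18 (adjusted p = 0.00597). The median was -0.52 for the 16 sites, -0.15 for all sites and -0.24 for the 11053 tested sites with a midpoint within 1 kb of a start. On the values as deposited the log2 change at the *Foxo1* promoter was 0.060. Without centring 0 of the 16 were lower and 5 higher. The number lower was 2 without reactivated replicate 1, and 5 without reactivated replicate 2 or without quiescent replicate 2.

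H3K4me3, which marks active promoters, covered the start of all 9 genes in both states. The marked regions had a median width of 4203 bp in quiescent and 3890 bp in activated cells, against 1738 and 1714 bp for all 15572 regions found in both lists. The latter include regions away from starts, and the width of promoter regions alone was not taken. Fold enrichment over input at *Foxo1* was 59.1 in quiescent and 45.2 in activated cells, at *Foxo3* 54.3 and 43.1, and at *Prox1* 50.02 and 46.3. *Klf9* had 46.9 and 40.3, *Rest* 39.8 and 38.9, and *Bhlhe40* 30.7 and 29.2. *Nr2e1* had the lowest ratio of activated to quiescent, 0.695, with 42.7 and 29.7. For *Klf4* the values were 18.4 and 19.8. *Bmi1* had the highest ratio, 1.34, with 21.3 and 28.6, but its region was 1 peak of 5689 bp in quiescent cells and 2 peaks of together 4572 bp in activated cells, and with a mean weighted by width the ratio was 1.06.

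No promoter passed 1.5-fold in either direction, where 1.39% of all regions were past it upward in activated cells and 6.52% downward, and the median ratio was 0.925 for the 9 promoters and 0.927 for all regions. Each state has 1 ChIP-seq library, so these differences have no replicate check. Of 15 H3K4me3 regions near the 9 genes, 12 were found in both states and 3 in quiescent cells alone (8.95% of all regions), with 0 in activated cells alone (1.9%). Those in quiescent cells alone were weak, with a fold enrichment of 4.29 at *Bhlhe40*, 4.47 at the *Klf4* site 17.5 kb downstream and 3.27 in a *Klf9* intron 5.5 kb downstream.

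**Figure D5:**
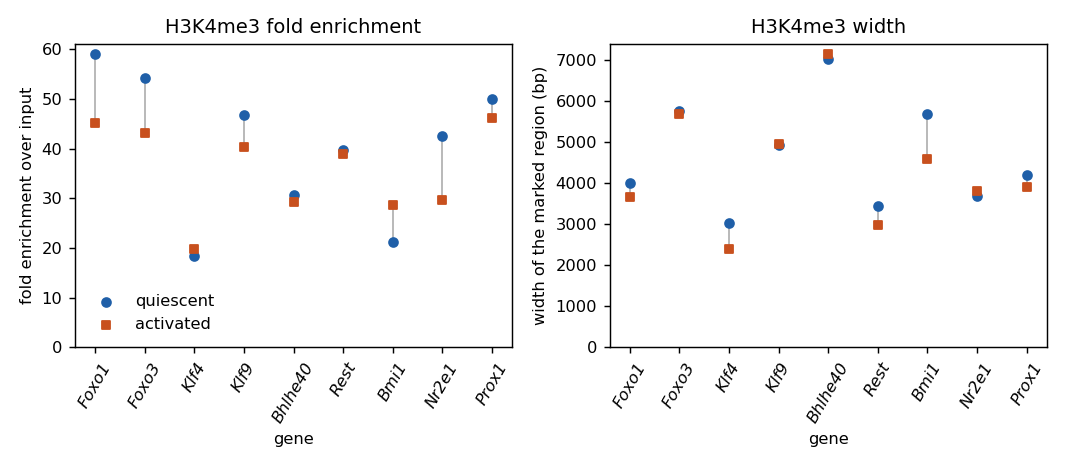
H3K4me3 fold enrichment over input (left) and width of the marked region in bp (right) at the promoter of each gene, with circles for quiescent and squares for activated cells and 1 library per state. *Nr2e1* is at 42.7 and 29.7 and *Bmi1* at 21.3 and 28.6 in quiescent and activated cells, and the regions at *Bmi1* are 5689 and 4572 bp wide.

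Other genes of the same families and complexes were taken as a list of 29. Of these, 26 had a promoter peak in all 6 libraries (52.2% of all protein-coding genes), and *Nr2e3*, *Pcgf2* and *Prox2* had none. Near them lay 182 sites, of which 5 were quiescent-specific (6.26% of all sites) and 9 activated-specific (4.24%). Among 72 sites tested between quiescent and activated cells, 3 were higher in quiescence (5.29% of all sites) and 6 lower (5.76%), by limma with an adjusted p under 0.05. The higher sites lay at *Foxo6*, *Klf6* and *Nr2f1*. The lower sites lay at *Klf13*, *Klf15* (2 sites), *Klf6*, *Bhlhe41*, the closest relative of *Bhlhe40*, and *Phc2*, a subunit of the complex that holds BMI1. At *Klf13* fold enrichment was 3.03 and 3.06 in quiescent, 8.55 and 8.08 in activated, then 13.2 and 12.6 in reactivated libraries, a log2 change of -1.23 ± 0.17 (SE, adjusted p = 0.00138). At *Bhlhe41* it was 5.14 and 6.37 in quiescent and 11.3 and 10.4 in activated libraries (-0.70 ± 0.19, adjusted p = 0.0324). None of the 12 sites tested at 7 REST corepressor genes passed in either direction.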

How the data were processed

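ATAC-seq peak lists of 6 libraries (3 states, 2 libraries each) and H3K4me3 peak lists of 2 libraries were used. Input libraries were not analysed here. The authors trimmed reads (Trim Galore 0.4.0), aligned them to mm10 (Bowtie2 2.2.5), removed duplicates (Picard 1.88, SAMtools 1.3.1) and called peaks per library with MACS, at an FDR of 0.05 for ATAC-seq. Broad H3K4me3 peaks were called over input, with limits of 0.05 for q and 0.01 for the broad cutoff. The deposited fold enrichment is a ratio of pileup to background, not scaled between libraries. The −log10 p-values and −log10 q-values that the authors deposited rise with the depth of each library, and the score column that the authors deposited, a rounded multiple of −log10 q, was not used. Percentiles of fold enrichment were taken within each list.

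Overlapping or abutting ATAC-seq peaks were merged to sites, with the highest fold enrichment kept per library and site. Distances run from the gene's 5′ end to the middle of the site. Pileups were recovered from fold enrichment and p. Log2 fold enrichment, centred on the median of each library, was fitted with limma 3.58.1 (R 4.3.3) over the 6 libraries without a replicate block, with Benjamini-Hochberg adjustment over all 23116 sites with a peak in all 6. H3K4me3 was compared without a test. Python 3.11.15, pandas 2.3.3, numpy 2.4.6 and scipy 1.17.1 were used. On simulated quiescent and activated data over 23116 sites, 22% of 100 changes of 1 log2 unit and 87% of 100 changes of 2 log2 units were called, with 1 false call. No other sites were changed there, while in the data 1223 sites were called higher and 1331 lower in quiescence. The adjusted threshold therefore differed, and these shares do not give the power of the test on the data. Classes and pileups were also tested on simulated data.

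The genes, lists and tests were chosen with earlier results of these data known. Named were all 9 genes, their promoter and strongest sites, all specific sites and all sites past the threshold between quiescent and activated cells. Not all motifs of the search are reported here.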

Additional observations from a re-analysis of the deposited data

How the results depend on the processing

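Peaks near the 9 genes averaged 27.5 in quiescent, 28 in activated and 61.5 in reactivated libraries at a −log10 q of at least 10. With lists of equal length they averaged 39, 43 and 46.5, with a window of 25 kb 42.5 in quiescent and 70.5 in reactivated, and with 100 kb 56, 52.5 and 104. Leaving out a library gave 46 to 49 quiescent, 42 to 49 activated and 81 to 89 reactivated peaks. The −log10 q limit left 1 quiescent-specific and 2 activated-specific sites, all (100%) open in both reactivated libraries, and equal lists gave 0% and 100%. With 1 library left out there were 6 to 15 quiescent-specific and 4 to 6 activated-specific sites. Of these, 40% to 100% and 60% to 83.3% were open in every reactivated library kept.

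Between quiescent and activated cells, the number of sites higher in quiescence (1 as reported) was 0 without centring, without the filter, at the −log10 q limit and in the fit of 4 libraries, 2 with a trend in the variance prior or equal lists, and 0 to 1 with a library left out. The 1 called without activated replicate 2 was the *Foxo3* site 25.4 kb downstream. The number lower was 3 without the filter, all at *Prox1*, where the filled-in quiescent values set the direction, and 0 with any library left out. Of the 15 sites not called, 12 changed sign under at least 1 alternative. Among them was the *Prox1* promoter (-0.10 without the filter). Reactivated against activated, the number higher was 0 with the mean of the peaks of a site, without the filter, at the −log10 q limit and with any library left out, and 3 without centring. The number lower was 0 under those first 2 and without centring, and 0 to 4 with a library left out. The *Bhlhe40* site 7.7 kb downstream had -0.26 without the filter. Of the 5 sites called in that comparison, 2 changed sign under at least 1 alternative. Of the 9 sites called lower in reactivated against quiescent cells, 7 changed sign without centring. Reactivated against quiescent, 5 were higher and 0 lower without centring, where the *Foxo1* promoter had 0.060, 1 was higher and 0 lower without the filter, 3 were lower with the mean of peaks, and 2 to 9 lower (0 higher) with a library left out. At the lowest fold limit tried in place of 1.5-fold, 1 promoter was higher and 3 lower in H3K4me3 in activated cells, and 2-fold, weighting by width or centring left the count at 0. The causes were not tested.

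With the replicate number as a block, 1 site was higher and 0 lower in quiescent cells, 0 higher and 4 lower in reactivated against activated cells, and 8 lower against quiescent cells. Deviations of same-numbered libraries correlated at -0.0013, 0.042 and -0.017 over 23116 sites, so the numbers were not taken to pair the samples. The lowest summit pileups at these sites were 17 to 25 reads per library, and the limit of peak calling in each list was not measured.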
